A study of Mus musculus with 9 samples.

Results

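The loci described here are those of *Fos*, *Nr4a1*, *Nr4a2*, *Fosl1*, *Crem* and *Atf3*, which were grouped as immediate early genes of the CREB/ATF type. Their members are the EWS/ATF1 peaks that overlapped 1 of 6 fixed windows of mouse genome build mm9 by at least 1 bp. There were 26 such peaks among 8090 in the sarcoma cell line G1297 and 28 among 27130 in sarcoma-iPSC MEFs. The windows were chr12:86765000-86868000 (*Fos*), chr15:101035000-101155000 (*Nr4a1*), chr2:56909000-57026000 (*Nr4a2*), chr19:5398000-5506000 (*Fosl1*), chr18:3216000-3388000 (*Crem*) and chr1:192944000-193057000 (*Atf3*). G1297 is a murine sarcoma line induced by EWS/ATF1, and the MEFs are embryonic fibroblasts grown from chimeras of iPSC clone #3, which had been reprogrammed from G1297, and were selected with puromycin. Both therefore carry the same doxycycline (Dox)-controlled, HA-tagged *EWS/ATF1* and descend from 1 sarcoma line, and both were profiled with an HA antibody after 12 h of Dox at 0.2 µg/ml. The labels describe 2 ChIP libraries of G1297 and 1 of the MEFs, but only 1 peak list for each cell type was used here, and the antibody sees the tagged fusion and not endogenous ATF1. Differences between the lists are given without a test, since nothing shows how much replicates of a cell type vary.

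EWS/ATF1 joins the amino-terminal part of the RNA-binding protein EWS to the DNA-binding domain of ATF1, a relative of CREB. CREB, ATF1 and CREM bind the cyclic AMP response element (CRE) through a basic leucine zipper, and in normal cells CREB and ATF1 switch on immediate early genes when they are phosphorylated after cyclic AMP or calcium signals. *Fos* and *Fosl1* encode partners of Jun proteins in AP-1, *Nr4a1* and *Nr4a2* encode orphan nuclear receptors, *Atf3* encodes a stress-induced bZIP factor, and *Crem* encodes activators and, from an internal promoter, the cyclic AMP-induced repressor ICER.

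The CRE itself is the palindrome TGACGTCA, and many cyclic AMP-responsive promoters carry only its core, TGACG. The 250 bases before a RefSeq start (GRCm38.p6) were read for the 4 genes found in the promoter table, *Fos*, *Nr4a1*, *Nr4a2* and *Atf3*, because CREB-type factors are known to act on such genes through CREs near their start. They are printed 5′ to 3′ with each TGACG, or CGTCA where it lies on the other strand, in capitals.
Fos: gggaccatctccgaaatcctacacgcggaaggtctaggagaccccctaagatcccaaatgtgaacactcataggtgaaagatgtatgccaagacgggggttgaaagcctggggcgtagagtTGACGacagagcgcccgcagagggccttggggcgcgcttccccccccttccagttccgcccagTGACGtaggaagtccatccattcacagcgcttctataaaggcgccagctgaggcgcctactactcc
Nr4a1: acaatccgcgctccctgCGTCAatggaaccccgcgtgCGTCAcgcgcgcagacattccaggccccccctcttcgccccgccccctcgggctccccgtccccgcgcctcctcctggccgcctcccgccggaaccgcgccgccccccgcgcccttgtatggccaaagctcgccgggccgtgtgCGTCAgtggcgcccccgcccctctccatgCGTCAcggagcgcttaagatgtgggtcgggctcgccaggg
Nr4a2: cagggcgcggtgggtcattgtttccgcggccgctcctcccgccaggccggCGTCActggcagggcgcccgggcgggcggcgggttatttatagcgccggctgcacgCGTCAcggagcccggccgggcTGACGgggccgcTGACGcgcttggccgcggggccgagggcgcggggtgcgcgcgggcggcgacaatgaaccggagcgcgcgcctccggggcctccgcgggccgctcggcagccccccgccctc
Atf3: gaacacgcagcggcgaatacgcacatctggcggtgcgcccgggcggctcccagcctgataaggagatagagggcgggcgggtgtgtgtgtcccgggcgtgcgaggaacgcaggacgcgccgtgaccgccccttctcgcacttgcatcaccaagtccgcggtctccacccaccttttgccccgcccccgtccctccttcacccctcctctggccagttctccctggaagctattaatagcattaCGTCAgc

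All 4 stretches held the core and none held the whole palindrome or an AP-1 site (TGANTCA on either strand). *Fos* had 2 cores, from base -129 to -125 and from -66 to -62 before the start. *Nr4a1* and *Nr4a2* had 4 each, and *Atf3* had 1, from -7 to -3. Of all 32851 promoters in the table, searched over the same length, 17.8% held at least 1 core, 0.137% at least 4, 1.55% the palindrome and 6.75% an AP-1 site. The genes had been chosen as CREB/ATF targets, so these matches describe them and are not a finding. The *Nr4a1* start searched lies 12.9 kb inside the gene, whereas those of the other 3 genes lie at its outer end. The sequences belong to a later build than the peaks and were not matched to them by position.

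Each window was 99.1 to 100.6 kb longer than the gene it is named for, so that about 50 kb lay on each side of the gene. The window less 50 kb at each side is called the central part below, and its end on the promoter side, known to about 1 kb because the windows are given in whole kb, is called the promoter-side edge. Positions along a locus are distances from this edge to the centre of a peak, negative before the gene. Each peak carries a score, which is -10 times the log10 of its MACS P value, and a score percentile, the percentage of all peaks of the same list with a lower score. Scores were compared only within a list.

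Peaks of both lists fell in 5 of the 6 windows, and no peak of either list fell in the *Fosl1* window. G1297 had 10 peaks at *Fos*, 6 at *Nr4a1*, 4 at *Crem* and 3 each at *Nr4a2* and *Atf3*. The MEFs had 9 at *Fos*, 7 at *Atf3*, 5 at *Crem*, 4 at *Nr4a2* and 3 at *Nr4a1*. The windows therefore held 1.08 MEF peaks for each G1297 peak, against 3.35 over the whole lists. G1297 had more peaks than the MEFs at *Nr4a1*, although its list is the shorter one, and the MEFs had more at *Nr4a2*, *Crem* and *Atf3*. At *Fos* the counts differed by a single peak, and they were level, 9 in each list, when only peaks wholly inside the window were counted. Among 12257 bins of 100 kb with a peak of either list, 8.75% held more G1297 than MEF peaks, and among the 837 bins with at least 3 G1297 peaks the percentage was 36.0. The 5 windows with peaks all held at least 3 G1297 peaks, and 2 of the 5 had more G1297 peaks, which is near that background. Ratios over the whole lists, and over chromosomes below, also count stretches without a G1297 peak. They are therefore no background for such windows.

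**Figure D1:**
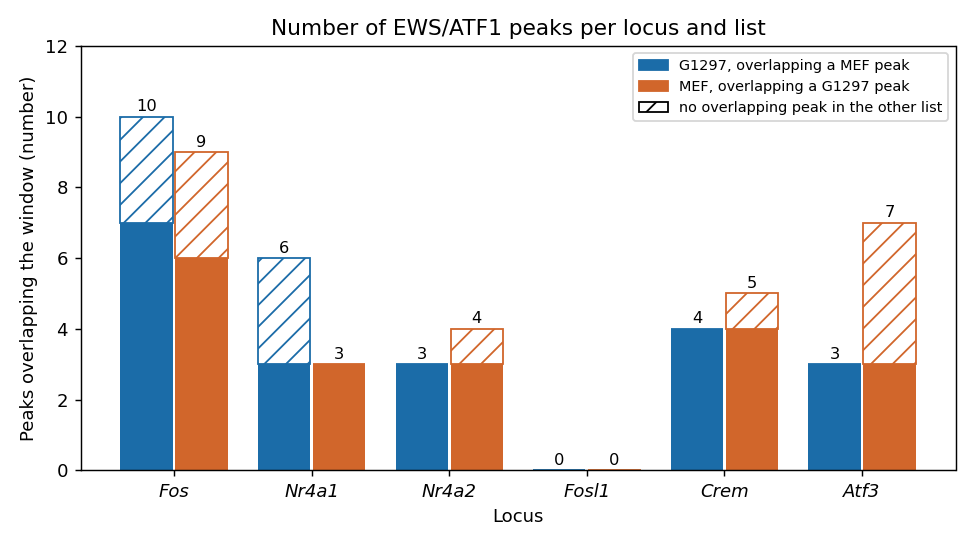
Number of peaks that overlapped each window (bars, from 0), with G1297 in blue and sarcoma-iPSC MEFs in orange. Filled parts overlapped a peak of the other list and hatched parts did not. *Fos* had the most peaks in both lists (10 and 9), *Nr4a1* had MEF peaks only where G1297 had them, and *Fosl1* had 0 in both.

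Of the 26 G1297 peaks in the windows, 20 (76.9%) shared at least 1 bp with a peak called in the MEFs, against 62.8% of the whole G1297 list. Of the 28 MEF peaks, 19 (67.9%) did so with a G1297 peak, against 18.5% of the whole MEF list and 29.4% of the 11630 MEF peaks whose score was at least the median of the 28. The G1297 share lay near its background and the MEF share above both of its own. The second MEF background leaves out peaks of lower score, whereas the 28 do not. Neither was limited to stretches rich in G1297 peaks. Each of the 5 windows with peaks held at least 3 G1297 peaks, as did only 3.27% of 100 kb bins. The MEF share over such bins is not given here. No test was run on either share because peaks are not replicates. The overlapping peaks formed 20 pairs, since 1 wide MEF peak at *Fos* spanned 2 G1297 peaks. Their centres lay a median of 73.5 bp apart and at most 511 bp, against a median of 66 bp over the 5109 pairs of the whole lists. The scores were not high as a group. The median score percentile was 47.6 for the 26 G1297 peaks, which ranged from 1.71 to 94.4, and 57.2 for the 28 MEF peaks, which ranged from 7.32 to 95.8. A score of at least 500 was reached by 8 of the G1297 peaks and 12 of the MEF peaks, against 30.9% and 35.8% of the whole lists.

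Position relative to the gene differed from locus to locus. In G1297, 9 of the 26 peaks overlapped a central part and 17 lay only in the flanks. In the MEFs these numbers were 7 and 21. The central parts were 3 kb (*Fos*) to 72 kb (*Crem*) long, and the flanks together were longer than the central part in every window. These counts alone therefore show no preference of the peaks for the flanks. Of the peaks in central parts, 4 in each list lay at *Crem*. A peak within 1 kb of the promoter-side edge, a limit chosen after the values were seen, was listed at *Fos*, *Nr4a2* and *Crem* in both cell types and at *Atf3* in the MEFs alone. Neither list had one at *Nr4a1* or *Fosl1*. For *Nr4a1* the edge stands for the outer end of the gene, and the RefSeq start searched above lies 12.9 kb inside it.

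**Figure D2:**
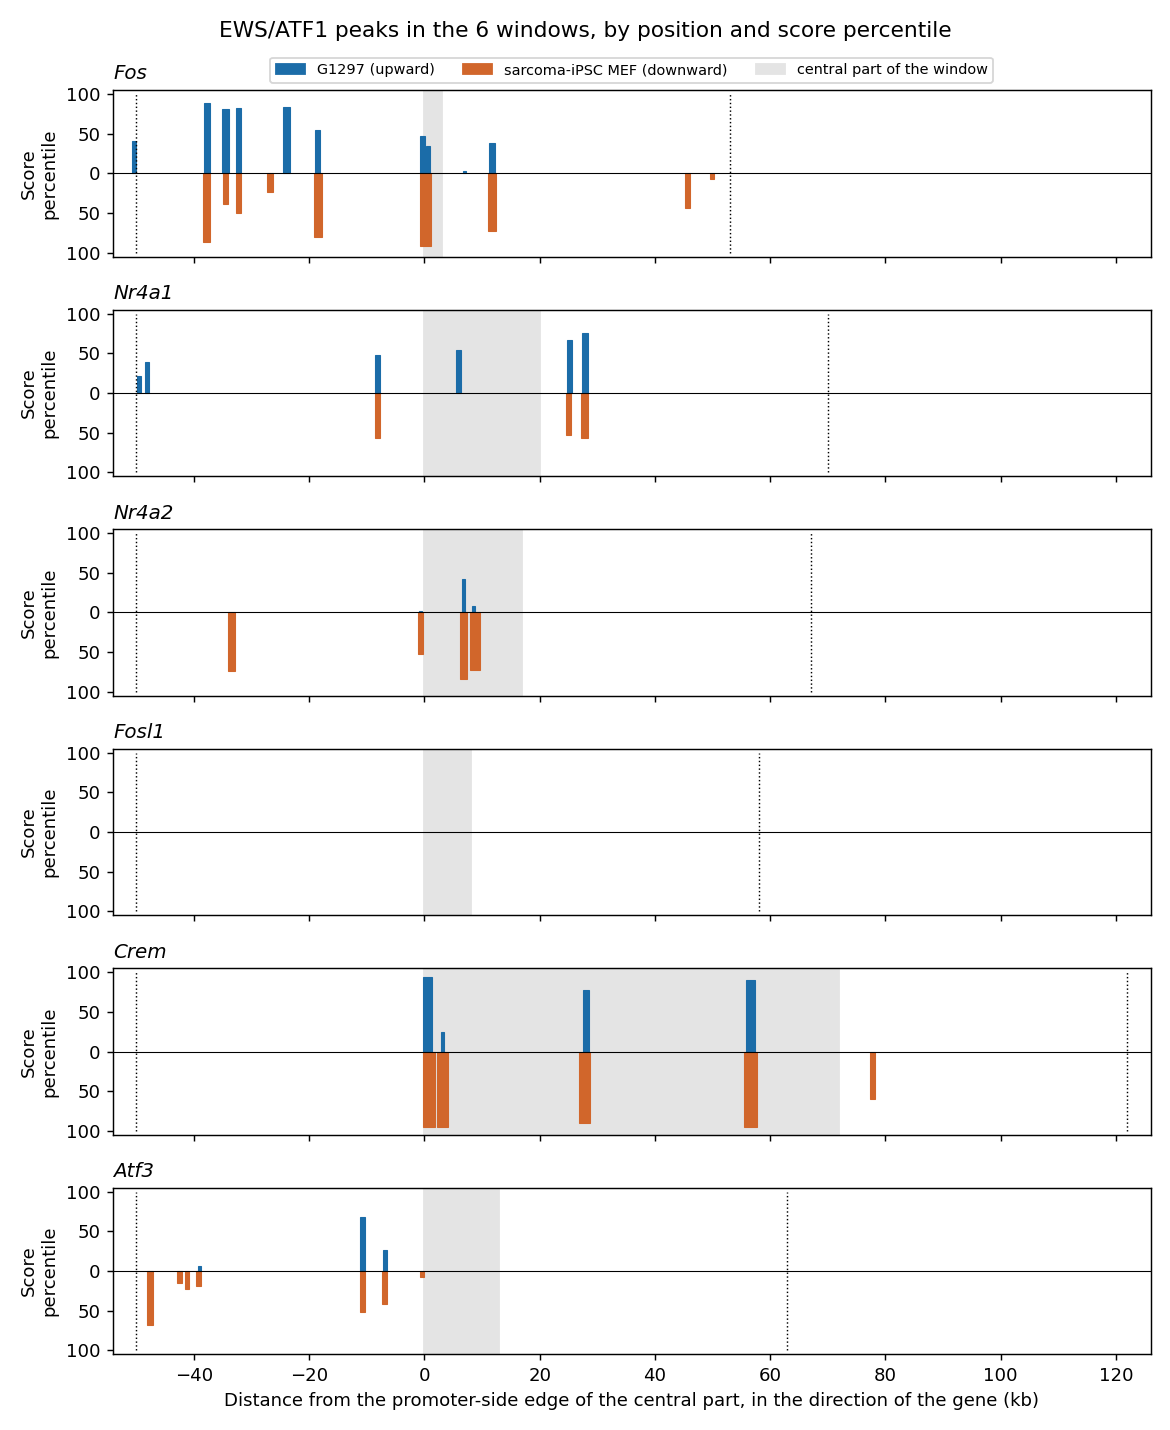
Peaks along each window in the direction of the gene, by distance from the promoter-side edge (kb), with widths to scale. Bar height is the score percentile within the list, G1297 upward and sarcoma-iPSC MEFs downward, grey marks the central part and dotted lines mark the window ends. At *Fos* the tallest G1297 bars have their centres 23.9 to 37.7 kb before the edge while the tallest MEF bar lies at the edge (91.7), and at *Crem* the tall bars lie inside the gene in both lists.

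*Fos*, a founding member of the AP-1 family, had a string of peaks before the gene and a group at its start. The RefSeq annotation (GRCm38) lists no other protein-coding gene within 50 kb of it. The 4 highest-scoring G1297 peaks all lay before the gene. The peak at chr12:86776734-86777860, 37.7 kb before the edge, had a score of 1346.14 (percentile 88.4). Those at chr12:86779885-86781023 and chr12:86782216-86783173 had scores of 863.12 (81.0) and 930.38 (82.6). The one at chr12:86790487-86791628, 23.9 kb before the edge, had a score of 1038.36 (84.4) and overlapped no MEF peak, the nearest being 1.85 kb away.

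The MEF list had overlapping peaks at the first 3 of these 4 sites, with the same order of scores. The peak at chr12:86776620-86777774 scored 1453.55 (87.1), close to the percentile of its G1297 partner. Those at chr12:86780032-86780938 and chr12:86782263-86783072 scored 225.54 (38.0) and 316.77 (50.3), 43.0 and 32.3 percentile points under their G1297 partners. Nearer to the gene the higher percentiles were those of the MEFs. At chr12:86795878-86797292 the MEF peak scored 977.83 (80.0), and the G1297 peak inside it, chr12:86796051-86796885, scored 307.32 (54.7).

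At the start of *Fos* the MEF list had a single peak, chr12:86814250-86816153, which was 1904 bp wide, covered the promoter-side edge and had the highest score of the locus in the MEFs, 2066.78 (percentile 91.7, rank 2259 of 27130). The G1297 list had 2 narrower peaks inside this stretch, chr12:86814260-86815121 with a score of 248.04 (47.3) and chr12:86815298-86816031 with 174.76 (34.2). The last shared site lay 11.7 kb past the edge, where the G1297 peak chr12:86826246-86827235 scored 191.57 (37.9) and the MEF peak chr12:86826130-86827523 scored 689.82 (72.4). In score percentile, the pairs 32.3 to 34.5 kb before the gene were thus higher in G1297, the pair at 37.7 kb was nearly level, and the 4 pairs from 18.5 kb before the edge onwards were higher in the MEFs. By rank, 2 of these 4 stood higher in G1297, at 18.5 kb (3667 against 5419) and at 11.7 kb (5025 against 7501). The 2 at the start stood higher in the MEFs (2259 against 4265 and 5325). The other 2 G1297 peaks without a partner had scores of 206.47 and 94.27, and the 3 such MEF peaks had scores from 105.93 to 264.51. The G1297 peak with a score of 206.47 crossed the lower end of the window, and the nearest G1297 peak outside lay 2.46 kb beyond that end.

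The *Fos* window held 0.9 MEF peaks for each G1297 peak, against 3.48 over chromosome 12. Of 25629 bins of 100 kb, 3 held at least 10 G1297 peaks (0.0117%) and 103 at least 9 MEF peaks (0.402%). The window is 103 kb long and was set around the gene, so these percentages are a scale for the counts and not a test. When neighbouring peaks up to 10 kb apart were joined, 5 G1297 peaks made a group of 20.2 kb before the gene and 4 made a group of 13.0 kb at the gene. In the MEFs, 5 peaks made a group of 20.7 kb over the same stretch before the gene. With peaks up to 5 kb apart joined, the groups before the gene shrank to 3 G1297 peaks over 6.44 kb and 4 MEF peaks over 12.0 kb. At the gene no group of at least 3 G1297 peaks was left.

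*Nr4a1* encodes Nur77, an orphan nuclear receptor induced by many growth and stress signals. The window held 6 G1297 and 3 MEF peaks, or 0.5 MEF peaks for each G1297 peak, against 2.68 over chromosome 15. Each of the 3 MEF peaks had a G1297 partner. The highest-scoring peak of the locus in both lists lay past the far end of the central part, 27.8 kb from the edge. It was chr15:101112307-101113359 in G1297, with a score of 654.79 (percentile 75.6), and chr15:101112264-101113370 in the MEFs, with 399.7 (57.5). Its neighbour at 25.2 kb, chr15:101109677-101110631 in G1297 and chr15:101109642-101110452 in the MEFs, scored 453.71 (66.6) and 344.11 (52.8). Both sites were thus higher in percentile in G1297, by 18.1 and 13.7 points. The remaining shared site lay 8.13 kb before the gene, where the G1297 peak chr15:101076469-101077271 scored 252.59 (47.9) and the MEF peak chr15:101076352-101077321 scored 391.41 (56.9).

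Inside the central part of *Nr4a1*, G1297 had 1 peak, chr15:101090562-101091319, with a score of 309.2 (percentile 54.8), and the MEFs had none, their nearest peak to it being 13.2 kb away. From the end of that peak to chr15:101109642, a stretch that takes in the rest of the central part, no peak of either list was found. The other 2 G1297 peaks without a MEF partner had scores of 133.13 and 198.51 and lay at the lower end of the window, about 50 kb before the gene. A further G1297 peak, chr15:101034081-101034990 with a score of 205.59, ended 9 bp outside the window and was not counted. Within 50 kb of *Nr4a1* the RefSeq annotation also lists *Acvr1b*, *Grasp*, *Atg101* and *Smim41*, and the peaks cannot be given to 1 of these genes from position in another build.

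*Nr4a2*, which encodes Nurr1, the nuclear receptor known for its part in dopamine neurons, had G1297 peaks in the lower part of their list. The MEF peaks at these sites had higher percentiles. All 3 G1297 peaks overlapped MEF peaks. In the gene, 6.78 kb past the edge, the G1297 peak chr2:56968926-56969516 had a score of 214.54 (percentile 42.0), and the MEF peak chr2:56968563-56969805 had 1200.76 (83.9). At 8.51 kb, the G1297 peak chr2:56967184-56967802 had 102.7 (7.84), and the MEF peak chr2:56966291-56968005 had 697.02 (72.6). Just before the promoter-side edge, the G1297 peak chr2:56976446-56976893 had 92.69, close to the limit of 90 that the authors' P value sets, and ranked 7951 of 8090. The MEF peak there, chr2:56976214-56977120, had 335.91 (52.1).

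The differences at *Nr4a2* came to 41.9, 64.8 and 50.4 percentile points, each in favour of the MEFs. These differences depend on the unlike lengths of the lists. By rank, the pairs at 6.78 and 8.51 kb lay close together (4691 and 7452 in G1297, 4359 and 7424 in the MEFs). The pair before the edge stood higher in G1297, at 7951 against 13001. The G1297 peaks were also narrow, from 448 to 619 bp against a median of 815 bp in the whole list, and each lay entirely inside its MEF partner. The remaining MEF peak, chr2:57008802-57010019, lay 33.4 kb before the gene with a score of 720.3 (73.4), 31.9 kb from any G1297 peak. Outside the window the next peak was 371 kb away in G1297 and 180 kb away in the MEFs.

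*Crem*, whose products bind the same element as ATF1, had the highest scores of the 6 loci in both lists. The 4 G1297 peaks all lay in the central part, and each overlapped a MEF peak. The G1297 peak at the promoter-side edge, chr18:3336683-3338255, scored 2154.08 (percentile 94.4, rank 455 of 8090), and the MEF peak chr18:3336211-3338332 scored 3100. In the inner part of the gene, 56.6 kb past the edge, the G1297 peak chr18:3280565-3282209 scored 1608.24 (90.7) and the MEF peak chr18:3280313-3282479 again 3100. At 28.1 kb, the G1297 peak chr18:3309404-3310447 scored 730.86 (77.9) and the MEF peak chr18:3309290-3311066 scored 1763.69 (89.8). These 3 pairs differed by 1.43 to 12.0 percentile points.

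The remaining site at *Crem*, 3.14 kb past the edge, stood apart from these. The MEF peak chr18:3333974-3335748 scored 3100, whereas the G1297 peak on the same centre, chr18:3334542-3335180, scored 144.66 (percentile 24.9). This difference of 71.0 percentile points was the largest among the 20 pairs. A score of exactly 3100 was given to 1062 MEF peaks, which share the percentile 95.8, so that the 3 MEF peaks at *Crem* cannot be ranked among themselves. The MEF list had 1 peak more, chr18:3259799-3260662, past the far end of the central part with a score of 423.06 (59.3). The MEF peaks in the central part were 1775 to 2167 bp wide, against a median of 970 bp in the whole list. *Cul2* is the only other protein-coding gene that RefSeq lists within 50 kb.

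*Atf3* had no peak in its central part in either list, and all of its peaks lay before the promoter-side edge. At 6.88 kb before the edge, the G1297 peak chr1:193013506-193014258 scored 147.96 (percentile 26.1) and the MEF peak chr1:193013488-193014402 scored 248.13 (41.6). At 10.7 kb, the G1297 peak chr1:193017314-193018155 scored 490.72 (68.5), the highest of the locus in G1297, and the MEF peak chr1:193017354-193018194 scored 326.51 (51.2). At 39.1 kb, the scores were low in both lists, 99.71 (6.09) for chr1:193045864-193046360 in G1297 and 137.5 (18.4) for chr1:193045815-193046577 in the MEFs.

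The 4 MEF peaks at *Atf3* without a G1297 partner lay at both ends of this stretch. A weak peak, chr1:193007071-193007845 with a score of 108.01 (percentile 8.02), lay 70 bp from the promoter-side edge, and since that edge is known only to about 1 kb, whether it lies before the gene or over its start cannot be told. The other 3 lay 41.2 to 47.6 kb before the gene, and the farthest of them, chr1:193054009-193055177, had the highest MEF score of the locus, 580.65 (68.4). These 3 and the shared peak at 39.1 kb made a group of 9.36 kb in the MEFs, where G1297 had a single peak with a score of 99.71. The window held 2.33 MEF peaks for each G1297 peak, against 3.68 over chromosome 1.

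*Fosl1*, which encodes Fra-1, was the only one of the 6 loci without a peak. The nearest G1297 peak, chr19:5743184-5744054 with a score of 307.31, lay 237 kb above the window, and the nearest MEF peak, chr19:5574665-5576024 with 1647.17 (percentile 88.9), lay 68.7 kb above it. The stretch without a peak around the window was 730 kb long in G1297 and 533 kb in the MEFs. In GRCm38 11 other protein-coding genes lie within 50 kb of *Fosl1*, among them *Cfl1*, *Drap1* and *Mus81*. Bins without a peak of either list were common, 52.2% of the 25629 bins, and 18.5% of bins held a G1297 peak and 45.4% a MEF peak. A window without a peak means that no region in it passed the authors' threshold. The weakest binding that could have passed cannot be given, because the depth is unknown.

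**Figure D3:**
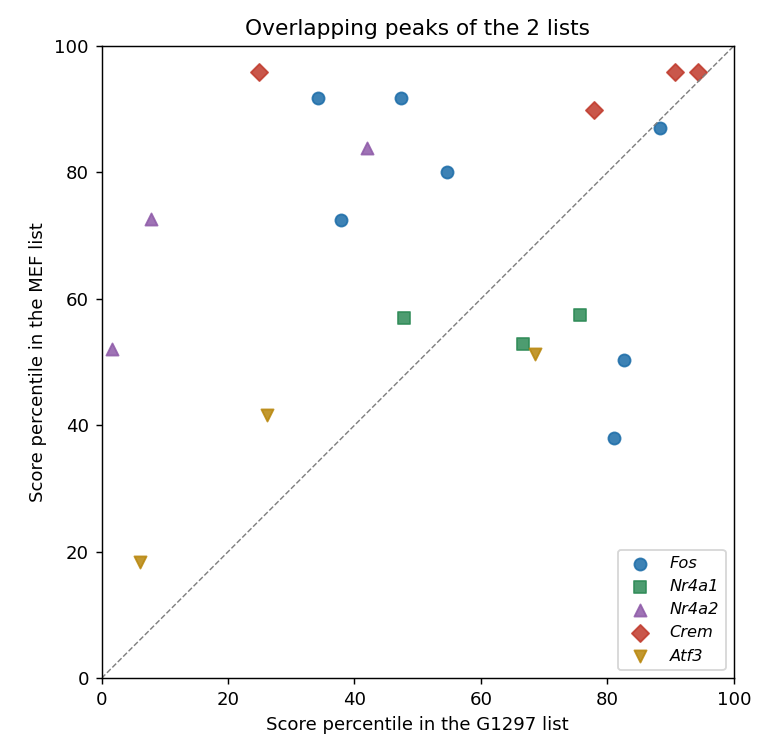
Score percentile of each of the 20 overlapping pairs in the G1297 list (x axis) and in the MEF list (y axis), by locus, with the line of equal percentile dashed. Of the points, 14 lie above the line and 6 below it, and the 3 points of *Nr4a2* combine G1297 percentiles of 1.71 to 42.0 with MEF percentiles of 52.1 to 83.9. Percentiles are taken within lists of unlike length, and several points above the line stand higher in G1297 by rank.

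Across the 20 pairs, the percentile was higher in G1297 in 6 (30.0%) and higher in the MEFs in 14. Over all 5109 pairs, the percentage higher in G1297 was 36.9. The median difference, G1297 minus MEF, was -12.2 points in the windows and -9.86 over all pairs. The middle part of the differences, from the lower to the upper quartile, ran from -42.5 to 4.36 points in the windows and from -34.3 to 9.15 over all pairs. The pairs thus lay near the background in their median and in their spread. The 6 pairs higher in G1297 were 3 at *Fos*, 2 at *Nr4a1* and 1 at *Atf3*, all of them outside the central parts. The pairs at *Nr4a2* and *Crem* were without exception higher in percentile in the MEFs. These signs depend on the unlike lengths of the lists. By rank, the *Crem* pair at 28.1 kb stood higher in G1297, at 1788 against 2754 in the MEFs. The same held at *Nr4a1* 8.13 kb before the gene (4218 against 11704) and at *Nr4a2* just before its edge (7951 against 13001). It also held at *Atf3* at 6.88 kb (5982 against 15842) and 39.1 kb (7597 against 22130). The *Fos* pairs at 18.5 and 11.7 kb, given above, did so too. The pairs at the start of *Fos* and the other *Nr4a2* pairs stood higher in the MEFs. The other 3 *Crem* pairs hold MEF peaks tied at a score of 3100. When ranks were taken among the peaks of the same chromosome, each of the 20 pairs kept the sign of its difference. This does not address list length, since each chromosome is also unlike in its number of peaks. Chromosome 18, for example, had 275 in G1297 and 1042 in the MEFs.

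Peaks in the windows that overlapped none of the other list were fewer and mostly weak. The 6 G1297 peaks of this kind had a median percentile of 39.9 against 51.3 for the 20 shared ones, and the 9 MEF peaks of this kind had 23.8 against 72.4 for the 19 shared ones. The same medians over the whole lists are not given here, so the difference is not shown to be particular to these windows. Those above the median score of their list were the G1297 peaks at *Fos* with 1038.36 and at *Nr4a1* with 309.2 and the MEF peaks at *Nr4a2* with 720.3, at *Atf3* with 580.65 and at *Crem* with 423.06. Read depth is unknown, because the lists carry peaks without counts, and more reads let more regions pass the same threshold. The labels of the 12 h libraries name mm9, Bowtie2 2.2.0 and MACS 1.4.2. Which input library and which G1297 ChIP library entered each list is not given in the sources used here.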

How the data were processed

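EWS/ATF1 was recovered with an HA antibody and sequenced as single-end reads. According to the submitters' processing notes and the methods, the authors aligned the reads to mm9 with Bowtie2 2.2.0 and called peaks with MACS 1.4.2 at P = 1e-09. For each cell type the authors deposited 1 list with the start and end of each peak and a score, -10 times the log10 of its P value. Neither list has values per replicate.

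Peaks that overlapped a window by at least 1 bp were taken as members, and starts were rewritten to count from 1. Overlaps were counted in Python 3.11.15 (pandas 2.3.3, numpy 2.4.6). The 4 counts equalled those of bedtools 2.31.1, and the steps were tested on simulated lists. Bins of 100 kb ran from the first to the last bin with a peak on chromosomes 1 to 19 and X. Every peak of the 6 windows was accounted for, and those named are the highest-scoring of each list, every overlapping pair and every peak in a central part, as well as unpaired peaks singled out after their values were seen. The loci and windows were chosen with earlier results of these data known. No test was run, because each cell type has 1 list. Other CREB/ATF genes were not analysed here, since the annotation used is of GRCm38 and coordinates were not converted. The KRAB libraries were not analysed here.

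The alternatives comprised minimum scores of 200 and 500, the 8090 top-scoring MEF peaks alone, windows widened by 50000 bp or narrowed by 40000 bp at each side, peaks wholly inside a window, overlap of at least 50% of both peaks, centres within 500 bp, other ranks and other bins.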

Additional observations from a re-analysis of the deposited data

How the results depend on the processing

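At scores of at least 200, the windows held 16 in place of 26 G1297 peaks, and 13 in place of 20 of them were shared. At scores of at least 500, they held 8 G1297 and 12 MEF peaks, 4 of each were shared, and 2 in place of 5 windows held a pair. When only the 8090 top-scoring MEF peaks were kept, the windows held 11 MEF peaks, 11 G1297 and 10 MEF peaks were shared, and 3 windows held a pair. The shares over the whole lists under these settings are not given here, so these shared counts cannot be set against a background. Percentiles among the 8090 top-scoring MEF peaks are not given here either. Widened windows held 40 G1297 peaks, and narrowed windows 16 G1297 and 15 MEF peaks. The median percentile in G1297 was 47.6, and 50.7 by rank within the chromosome and 53 by rank of peak width. In the MEFs it was 57.2, and 56.5 and 46.3 under the same settings. Bins of 200 kb with at least 3 peaks made up 8.27% in G1297 and 32.1% in the MEFs, against 3.27% and 15.4% at 100 kb, as larger bins hold more peaks. Of 40 comparisons with an alternative, 20 stayed within the limit set for them, which was 1.5 times for a count and the 95% binomial interval for a percentile or percentage. That interval does not measure the spread among the 26 or 28 peaks behind a median percentile. It counted even the shift from 57.2 to 56.5 as outside the limit. By locus, the lead of G1297 at *Fos* was lost with peaks wholly inside the window (9 in each list) and at scores of at least 200 (7 in each) or 500 (4 in each). It held with the 8090 top-scoring MEF peaks (10 against 4) and in widened (13 against 10) and narrowed windows (4 against 2). The lead of the MEFs was lost at *Nr4a2* in narrowed windows and, with the 8090 top-scoring MEF peaks, at *Nr4a2* and *Crem*, and at *Atf3* it turned to 3 G1297 peaks against 0 MEF peaks. *Nr4a1* kept more G1297 peaks under the 6 settings that change which peaks are counted.

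No paired analysis was possible because the 2 lists hold no replicates, and none was left out. The unknown depth limits every count.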
